A study of Mus musculus with 2 samples.

Results

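The neuregulin ligand genes Nrg1, Nrg2 and Nrg3 and the receptor genes Erbb2, Erbb3, Erbb4 and Egfr were followed through the nuclei of 2 mouse brain sections. They were picked by symbol as a gene family, and make up 7 of the 32285 genes in each count table. The study, Slide-tags, placed a frozen section on a bead array that releases spatial barcodes into the nuclei, and then sequenced those nuclei in droplets. The adult library came from 1 coronal section of 20 µm through the hippocampus of male C57BL/6J mice of 56 days, taken fresh frozen. The embryonic library came from 1 sagittal section through the brain of a whole C57BL/6J embryo at embryonic day 14 (E14), bought frozen, with no sex given in the labels. The adult mice and the mother of the embryo were perfused, and no other treatment is named. Each tissue was 1 library, so no difference below has a replicate or a test, and all 95% intervals cover counting error only.

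Neuregulins are growth factors with an EGF-like domain that stay in the membrane of the cell that makes them or are shed from it by proteases. ErbB4 and ErbB3 bind them. ErbB2 binds no known ligand and acts as partner of the other receptors, ErbB3 has a weak kinase and relies on its partner, and the EGF receptor answers to EGF, TGF-alpha and related factors. In the brain, ErbB4 is known from interneurons, whose migration and synapses neuregulins affect, ErbB3 from myelinating glia, and the EGF receptor from progenitors and glia.

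All 7 are protein-coding, and Nrg1 (1069 kb), Nrg3 (1104 kb) and Erbb4 (1076 kb) are among the longest genes, against 25.2 kb for Erbb2 and 22.1 kb for Erbb3. In the GENCODE annotation of mm10 (GRCm38), Nrg1 lay at chr8:31814551-32884029 on the minus strand, Nrg2 at chr18:36017652-36197380 (minus), Nrg3 at chr14:38368952-39473088 (minus), Erbb2 at chr11:98412470-98437716 (plus), Erbb3 at chr10:128567523-128589652 (minus), Erbb4 at chr1:68032186-69108059 (minus) and Egfr at chr11:16752203-16918158 (plus). Their identifiers in the count tables are, in that order, ENSMUSG00000062991, ENSMUSG00000060275, ENSMUSG00000041014, ENSMUSG00000062312, ENSMUSG00000018166, ENSMUSG00000062209 and ENSMUSG00000020122. Nuclear counts include introns, so length enters each level. Per kilobase of gene, in CPM (unique molecules, or UMIs, per 1000000 UMIs of the library or class), Nrg3 stood highest in both libraries, at 3.48 in the adult and 2.69 in the embryo. Nrg2 followed in the adult at 1.16, whereas Erbb4 followed in the embryo at 1.77. Adult Erbb2 had the lowest level of the set, 0.0181 per kilobase, and in the embryo Erbb3 was lowest at 0.0207. In the GENCODE annotation, genes on the same strand overlap Nrg3 (1 gene), Erbb3 (1, the miRNA gene Mir6917) and Erbb4 (8). How reads in these overlaps were counted was not tested.

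The adult library held 1609 nuclei with at least 500 UMIs (median 6607) and the embryonic library 9036 (median 4204), and 1 cell barcode occurred in both. Nuclei were put in classes, called by name below in the sense of "X-like", by the scaled UMIs of marker lists that hold none of the 7 genes. This classed 1128 adult nuclei (70.1%) and 2893 embryonic nuclei (32.0%). A class is thus a range of a score and not a type: 71 adult and 558 embryonic nuclei lay just above the required lead of 1.5 times over the next list and 69 and 651 just below it. Median own scores of the adult classes ran from 0.164 (CA1) to 0.764 (mural), against 0.0184 to 0.291 for the next list, and at E14 from 0.187 (striatal) to 0.517 (endothelial) against 0.0173 to 0.125 over classes of at least 20 nuclei. The labelled tissues held their markers: Prox1 of dentate granule cells had 2681 UMIs in the adult, where thalamic and a few cortical nuclei were present too, and Neurod6 of young cortical neurons 2145 UMIs at E14. The E14 section held 653 nuclei marked as likely doublets by their score, which were kept, and its low-count droplets carried sizeable levels of the long neuronal genes, given beside the results they touch.

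In the adult section the neuregulin genes were highest in neurons and also present in oligodendrocyte precursors, with a different order of neurons for each gene. Nrg1, whose product drives myelination and acts on interneuron synapses, was summed over nuclei at 689 CPM in dentate granule nuclei (95% interval 666 to 712, 362 nuclei). It stood at 466 in inhibitory nuclei (408 to 530.3, 36 nuclei), 419 in oligodendrocyte precursors (337 to 514, 34 nuclei), 365 in CA1 pyramidal nuclei (341 to 390.0, 133 nuclei) and 336 in thalamic excitatory nuclei (304 to 369.6, 82 nuclei). The inhibitory and precursor intervals overlap, as do those of precursors, CA1 and thalamus, so those neighbours in the order cannot be separated. CA3 pyramidal nuclei (36) held little, 49.5 (34.4 to 68.8), and 65.7% of that came from 1 nucleus. CA1 therefore exceeded CA3 7.38-fold (5.26 to 10.7). In the same manner 68.2% of the oligodendrocyte UMIs (27.7 CPM, 233 nuclei) and 31.9% of the astrocyte UMIs (236 CPM, 110 nuclei) came from a single nucleus. Microglial (37) and endothelial (39) nuclei had no Nrg1 UMI, which allows up to 34.3 and 18.7 CPM.

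The highest Nrg1 level of all was in the 16 nuclei with cortical excitatory markers, 3046 CPM (2840.2 to 3263), 4.42 times the granule level (4.09 to 4.78). This class is under 20 nuclei and enters no ranking. Among its nuclei of at least 2000 UMIs, single nuclei ran from 0 to 5863 CPM with a median of 2918, while granule nuclei had a median of 291 and a highest value of 7995. Nrg1 was detected in 70.7% of granule nuclei, 69.9% of CA1 nuclei and 87.5% of cortical nuclei. With every nucleus thinned to 1000 UMIs, which leaves out 2 granule, 8 thalamic and at most 10 nuclei of any adult class, the shares were 35.6%, 22.3% and 81.2%. Microglia, the class that should lack the gene, gave 0 of 37 nuclei, which allows a share of nuclei with a UMI, not of nuclei that express the gene, of up to 9.49% at a median of 2079 UMIs against 11629.5 in granule nuclei.

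Nrg2, a close relative of Nrg1, followed the granule cells more tightly. Its level was 380.2 CPM in dentate granule nuclei (363 to 398), 268 in inhibitory nuclei (225 to 318) and 179.6 in precursors (128 to 245). Thalamic nuclei had 158, CA1 nuclei 89.5, astrocytes 78.8, CA3 nuclei 48.0 and oligodendrocytes 37.7. The granule level exceeded that of CA1 4.25-fold (3.68 to 4.92) and that of CA3 7.91-fold (5.64 to 11.5). Inhibitory nuclei and precursors overlapped in their intervals, as did precursors and thalamic nuclei, and below the thalamus no neighbours in the order from CA1 down were separated. The 5 endothelial UMIs all came from 1 nucleus and microglia had 2. A UMI was found in 91.7% of granule nuclei (31.1% after thinning) against 5.41% of microglia (0%).

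Nrg3, whose product is largely brain-specific and binds ErbB4, was the common neuronal neuregulin. Thalamic nuclei held 5752 CPM (5619 to 5888) and CA3 nuclei 5742 (5567 to 5921), with overlapping intervals. CA1 (4344), dentate granule (4286) and inhibitory nuclei (4193) came next and could not be told apart either. The CA3 class, low in Nrg1 and Nrg2, was thus at the top for Nrg3. Precursors held 1473 (1316 to 1644), 15.4 times the oligodendrocyte level of 95.6 (12.0 to 20.1). Astrocytes had 39.4, endothelial nuclei a single UMI and microglia none. After thinning, 94.3% of CA3, 93.9% of granule, 77.0% of thalamic and 60.6% of precursor nuclei kept a UMI, against 5.83% of astrocytes and 0 of the microglia (unthinned 94.4%, 97.2%, 74.4%, 76.5% and 9.09%). The thalamic share joins unlike nuclei: 53 of the 82 lay in a cluster with a median of 18954 UMIs and Nrg3 in 100% of its nuclei, and 29 in one with a median of 1019 UMIs and Nrg3 in 23.3%. In the library 317 nuclei had under 1.5% Malat1 UMIs, and without them the thalamic Nrg3 level was 6068 CPM.

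The receptor genes had other leading classes than the ligands, though inhibitory nuclei and oligodendrocyte precursors held both. Excitatory neurons, the main holders of neuregulin, had almost no receptor transcript. Erbb4 reached 6265 CPM in inhibitory nuclei (6047 to 6489.6), 2638 in oligodendrocyte precursors (2427 to 2863), 2243 in oligodendrocytes (2140.0 to 2349) and 468 in astrocytes (415 to 526). None of these 4 intervals overlaps another. Dentate granule nuclei had 11.5 (8.68 to 14.8), CA3 12.7, CA1 5.49 and thalamic nuclei 2.45. The inhibitory level was 547 times that of granule nuclei (421 to 724), 2.37 times that of precursors (2.17 to 2.60) and 2.79 times that of oligodendrocytes (2.63 to 2.96). Microglia had no Erbb4 UMI.

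By share of nuclei the order of Erbb4 was different, with the precursors and oligodendrocytes ahead. A UMI was present in 97.1% of precursors, 88.8% of oligodendrocytes, 77.8% of inhibitory nuclei and 28.2% of astrocytes. After thinning these were 90.9%, 73.5%, 61.8% and 22.3%, and the granule share fell from 6.91% to 0.833%. Among nuclei of at least 2000 UMIs every precursor had the gene, from 551 to 6988 CPM with a median of 2158. Oligodendrocytes had a median of 1670.2 and inhibitory nuclei of 3849.9, up to 20253. Most nuclei of the oligodendrocyte lineage therefore held the transcript at an intermediate level, whereas the inhibitory class mixed nuclei without a UMI and nuclei with very many.

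Erbb3, the receptor known from myelinating glia, was found in the same lineage. Oligodendrocytes held 108 CPM (86.5 to 134, 86 UMIs in 70 nuclei) and precursors 41.4 (18.9 to 78.7, 9 UMIs in 7 nuclei). Mature cells were 2.61 times higher (1.31 to 5.90), opposite to Erbb4, which was 1.18 times higher in precursors (1.07 to 1.29). The other adult classes together held 4 Erbb3 UMIs (2 in astrocytes, 1 in inhibitory and 1 in CA1 nuclei). It was detected in 30.0% of oligodendrocytes against 0 of 362 granule nuclei, whose median depth was higher (11629.5 against 3029 UMIs). After thinning the oligodendrocyte share was 11.2%.

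Egfr had 2 holders, astrocytes at 364 CPM (318 to 416) and inhibitory nuclei at 236 (195 to 283). The first exceeded the second 1.54-fold (1.23 to 1.95). Next came precursors with 18.4 CPM (4 UMIs in 1 nucleus), endothelial nuclei with 2 UMIs and granule nuclei at 3.82. No UMI was found in oligodendrocytes, CA1, CA3 or microglia. Against a count of 3 in oligodendrocytes, astrocytes were at least 96.6-fold higher and inhibitory nuclei at least 62.6-fold higher. Detection was 59.1% in astrocytes and 52.8% in inhibitory nuclei, or 33.0% and 20.6% after thinning, against 4.14% and 0.833% in granule nuclei of a median of 11629.5 UMIs. Erbb2 was nearly undetected, with 7 UMIs in the whole adult library, of which 3 lay in astrocytes and 1 in a mural nucleus. At this depth its class could not be determined.

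How far a gene was concentrated was described by the level of its highest class over that of all other classed nuclei, with small classes not allowed to lead. Erbb3 (oligodendrocytes, 86.5-fold, 48.9 to 165), Egfr (astrocytes, 28.0-fold, 22.7 to 34.7) and Erbb4 (inhibitory, 26.4-fold, 25.1 to 27.8) reached 4-fold. The ligand genes did not: Nrg2 was at 3.65, Nrg1 at 1.85 and Nrg3 at 1.56. For Nrg1 this rests on barring the cortical excitatory class (16 nuclei), which held 3046 CPM, 4.42 times the granule level. A cluster of 29 nuclei with cortical excitatory markers held 2965 CPM of Nrg1, with a UMI in 100% of them. Neither was taken as the leading group in these folds. Under that rule 3 of the 6 members that passed 100 UMIs in classed nuclei reached 4-fold, all of them receptors. Among all genes, 26.1% of 11170 reached 4-fold and the median gene stood at 2.45. Erbb2 did not pass. When every nucleus weighed the same, the Erbb4 fold became 10.0, that of Erbb3 45.6 and that of Nrg1 2.83. The thinned shares of Erbb3 in oligodendrocytes and Nrg2 in granule nuclei rose to 21.1% and 52.3% at 2000 UMIs, as shares depend on depth.

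Within the dentate granule class the Nrg1 level differed between clusters that were built without the 7 genes. A cluster of 181 granule nuclei led by Sorcs3 and Sgcz held 1179 CPM (1135 to 1224). The other large cluster, 164 nuclei led by Ryr1 and Camk4, held 264 (245 to 285), a 4.46-fold difference (4.10 to 4.86). A UMI was present in 162 nuclei of the former and 91 of the latter, at medians of 11099 and 13142 UMIs, so the deeper cluster was the lower one. By ratio, Nrg1 ranked 3 of 7055 genes. The other ligands moved far less, Nrg2 by 1.10 (1.01 to 1.21) and Nrg3 by 0.810. In CA1 it was Nrg2 that differed: 111 CPM in 93 nuclei against 33.5 in 27, or 3.32-fold (2.11 to 5.49), with Nrg1 at 0.939 and Nrg3 at 0.893.

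Astrocyte Erbb4 lay mostly in 1 small cluster, with 267 of the 285 UMIs of the class. All 21 of its nuclei had a UMI, and the level was 2445 CPM (2160.2 to 2756), as high as in oligodendrocytes. The 68 nuclei of the main astrocyte cluster held 39.4 (23.4 to 62.3) with 10 positive nuclei, 62.0 times less (38.5 to 106), and Erbb4 ranked 1 of 954 genes by that ratio. The small cluster also held more Egfr, 595 against 342 (1.74-fold, 1.28 to 2.34), and more Nrg2, 229 against 50.4. Nrg1 went the other way, at 0 against 316, at least 11.5-fold lower. The neuronal gene Nrg3 had 1 UMI there (9.16 CPM) and 21 in the main cluster (46.0 CPM), a ratio whose interval spans 1 (0.00481 to 1.24). The part of RNA from other cells was not tested. Leading genes of the small cluster against the other astrocytes were Kcnd2, Gabbr2 and Gria1, which encode a potassium channel and subunits of GABA and glutamate receptors.

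The 36 inhibitory nuclei differed widely among themselves. No Erbb4 UMI was found in 8 of them and over 5000 CPM in 15, with a median of 2373 and up to 443 UMIs in 1 nucleus. Of the 8 without a UMI, 3 had only 556, 780 and 1949 UMIs in all, so a 0 there says little. Egfr was present in 19, of which 18 also had Erbb4. The 5 nuclei with at least 2 UMIs of the neuropeptide gene Sst had Erbb4 at 422 CPM against 7439 in the other 31, 17.6-fold lower (12.6 to 25.3). The median depth of the Sst nuclei was higher, 17845 against 11886 UMIs. The ratio, 0.0568, moved to 0.0265 when 4 distinct markers were asked of each nucleus and to 0.102 with equal weights. Their Egfr was at 0 against 284, at least 7.83-fold lower. The 11 nuclei with Lamp5 (median 13128 UMIs against 11822), known from neurogliaform interneurons, stood at the opposite end, with Erbb4 at 11145 against 3782 (2.95-fold, 2.74 to 3.17) and Egfr at 389 against 158 (2.46-fold, 1.68 to 3.61).

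The same Lamp5 nuclei held no Nrg1, where the other inhibitory nuclei held 703 CPM. That Nrg1 level rests on few cells, since 121 of the 231 inhibitory Nrg1 UMIs came from 1 nucleus and 190 from 3. Nos1 (8 nuclei) went with more Erbb4, 10419 against 5127, and Vip (4 nuclei) with 9705 against 5970.2. Nuclei with and without Reln, Npy or Cck lay within a ratio of 0.868 to 1.03 for Erbb4. Pvalb, which marks the basket cells in which ErbB4 has been most studied, was found in 1 nucleus, with 168 Erbb4 UMIs, so that subtype could not be described. These groups overlap, because a nucleus can hold several of the genes.

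**Figure D1:**
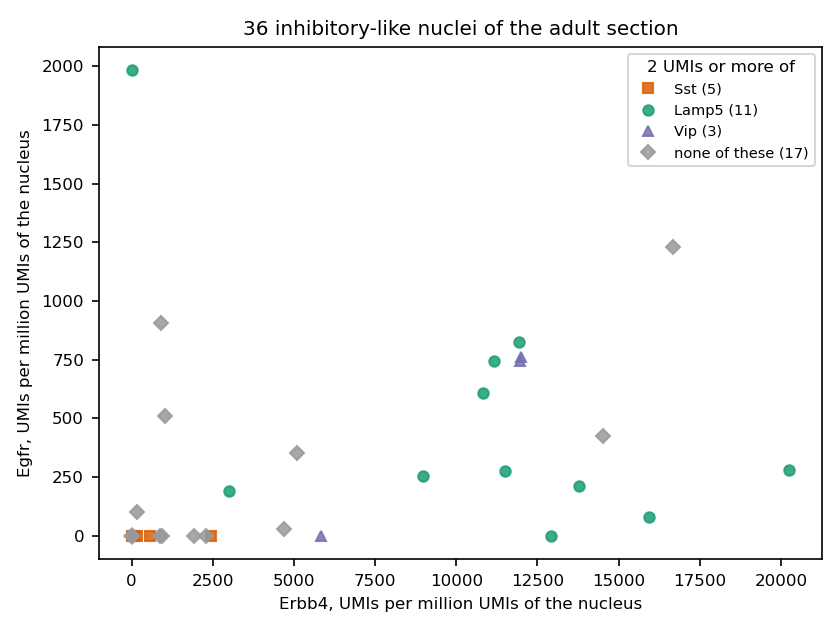
Erbb4 against Egfr in each of the 36 adult inhibitory nuclei, both in CPM (UMIs per 1000000 of that nucleus), coloured by the first of Sst, Lamp5 and Vip of which the nucleus held at least 2 UMIs. The Sst nuclei lie at the lower left with no Egfr. The highest Erbb4 (20253 CPM, with 281 of Egfr) and the highest Egfr (1983 CPM, without an Erbb4 UMI) are both in Lamp5 nuclei. Egfr occurs with Erbb4 in 18 of its 19 nuclei.

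Set side by side, the adult classes differed in which of ligand and receptor they held. Dentate granule nuclei held 5355 CPM of ligand and 15.3 CPM of receptor transcripts, CA1 4798 and 5.91, CA3 5839.5 and 12.7, and thalamic nuclei 6246 and 3.27. These excitatory classes held ligand with little receptor. Oligodendrocytes were the reverse, 161 CPM of ligand and 2351 CPM of receptor. Inhibitory nuclei (4927 and 6503) and precursors (2072 and 2698) held both. Astrocytes lay between, at 355 and 841. Microglia (22.9 and 0) and endothelial nuclei (37.4 and 18.7) held almost neither.

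The pair also occurred in the same nuclei. At 1000 UMIs per nucleus, a ligand and a receptor UMI were found together in 52.9% of inhibitory nuclei (18 of 34, 35.1 to 70.2) and 66.7% of precursors (22 of 33, 48.2 to 82.0). The products of the separate shares were 55.2% and 68.9%, inside those intervals, so no departure of the pair from the separate shares was detectable at this number of nuclei. Astrocytes reached 9.71%, oligodendrocytes 5.38%, granule nuclei 1.67% and thalamic nuclei 0%.

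**Figure D2:**
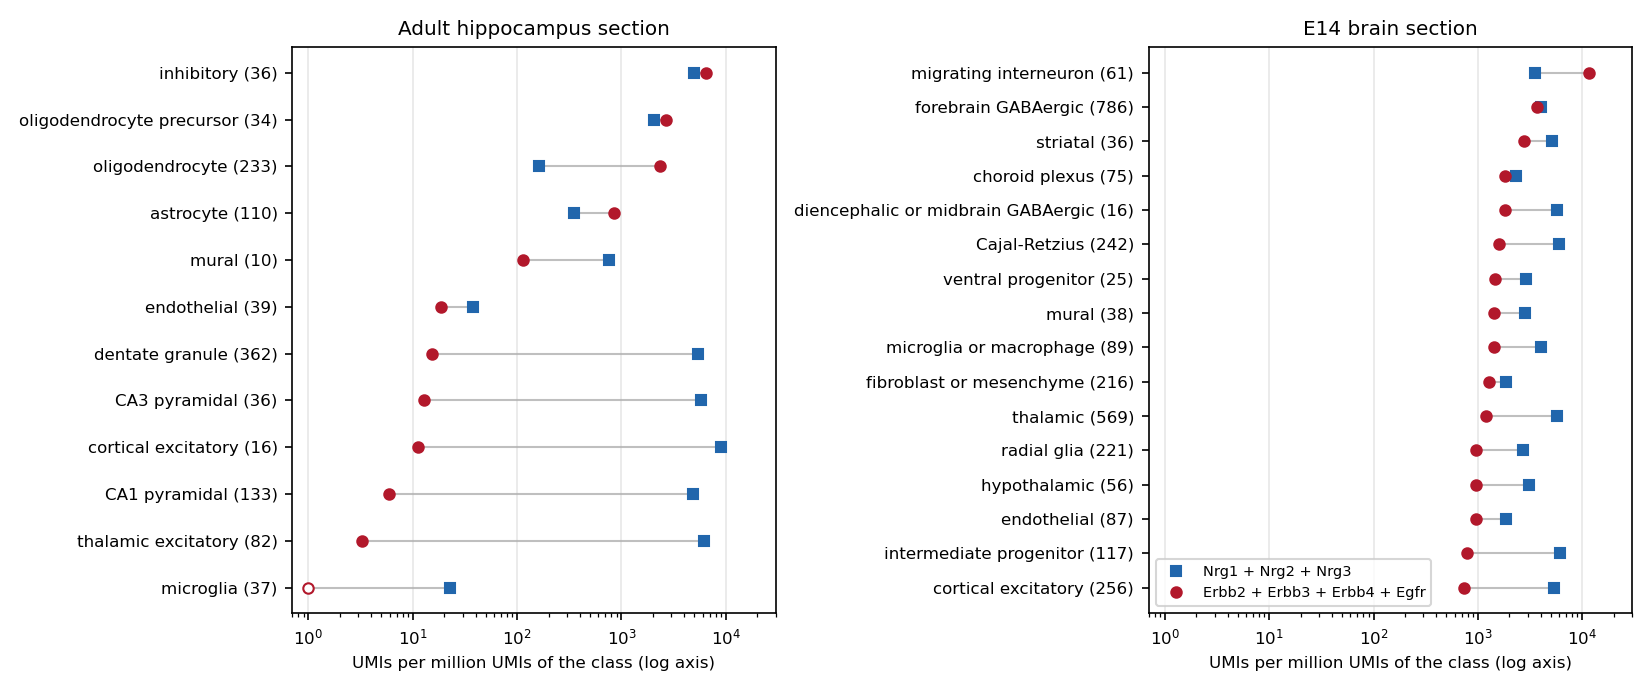
Summed CPM (UMIs per 1000000) of the 3 ligand genes (squares) and of the 4 receptor genes (circles) in each class of at least 10 nuclei, adult left and E14 right, on a log axis, with open markers drawn at 1 for classes without a UMI. Adult dentate granule, CA1, CA3 and thalamic classes have over 4000 CPM of ligand and under 20 CPM of receptor, whereas the E14 classes show over 700 CPM of both, of which receptor values at or under the Erbb4 level of low-count nuclei (1256 CPM) and microglia (1399 CPM) cannot be read as expression.

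In the E14 brain section the genes were read above a floor. Nuclei under 1000 UMIs that fell in no class (969 nuclei) held 872 CPM of Nrg1, 1993 of Nrg3, 1256 of Erbb4 and 46.1 of Nrg2. Microglia or macrophage nuclei (89), which should lack them, held 1308, 2612, 1399 and 76.0. The microglial values are close to those of the low-count nuclei, unlike in the adult, where microglia had none of Nrg1, Nrg3 or Erbb4. They are sums that were uneven over nuclei. Among the 75 microglial nuclei of at least 2000 UMIs, the medians were 362 CPM of Nrg1, 660 of Nrg3 and 0 of Erbb4. A cluster of 82 nuclei, 75 of them of this class, held 883, 2597 and 1483 CPM of these genes. A class near the summed levels of the low-count or microglial nuclei cannot be read as a holder of the transcript. The 15 doublet-marked nuclei of the microglial class were not tested as a source.

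Nrg1 stood clear of that floor in intermediate progenitors, cortical excitatory and Cajal-Retzius nuclei. Intermediate progenitors, which arise from radial glia and give cortical neurons, held 4908 CPM (4773 to 5045, 117 nuclei), cortical excitatory nuclei 2689 (2627 to 2753, 256) and Cajal-Retzius nuclei 2183 (2116 to 2251, 242). Thalamic nuclei had 1647 (1606 to 1688, 569) and radial glia 1444 (1387 to 1501, 221), and no 2 of these 5 intervals overlap. The radial glia level is close to the microglial 1308 (1234 to 1384). The remaining 10 classes ran from 1308 in microglia down to 539.7 in endothelial nuclei, with striatal (1129), GABAergic (981) and migrating interneuron nuclei (926) between. Single intermediate progenitors of at least 2000 UMIs had a median of 3148 and reached 20880.2. Their thinned share was 74.1%, against 71.5% of cortical and 30.3% of microglial nuclei (unthinned 90.6%, 93.0% and 51.7% at medians of 5330, 7098 and 4498 UMIs).

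Along the cortical lineage Nrg1 peaked in the middle. Radial glia with dorsal genes only (Emx1, Emx2, Dmrta2, Dmrt3 or Pax6, 100 nuclei) held 1775, and intermediate progenitors were 2.77 times higher (2.60 to 2.94). They also exceeded the cortical neurons 1.82-fold (1.76 to 1.89). Nrg3 stood at 1245 in progenitors and 2616 in cortical nuclei, a ratio of 0.476 (0.448 to 0.505), but neither value exceeds the microglial 2612 beyond counting error. Radial glia with ventral genes only (Nkx2-1, Gsx2, Olig2 or Dlx2, 28 nuclei) had less Nrg1, 749, a value under that floor, and more Erbb4, 1706 against 622. The dorsal Erbb4 value of 622 is likewise under the microglial 1399 and cannot be read as expression. The dorsal to ventral ratio was 2.37 for Nrg1 (1.98 to 2.86) and 0.364 for Erbb4 (0.314 to 0.423). With a lead of 2 times over the next marker list these became 1.40 and 0.223, both in the same direction.

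The 2 radial glia clusters built without the 7 genes also differed in Nrg1 and Erbb4. Whether they differ in the dorsal or ventral genes was not tested. A radial glia cluster led by Creb5 and Ltbp1 (469 nuclei) held 2905 CPM of Nrg1, 488 of Erbb4 and 3.86 of Egfr. A second, led by Sox1ot and Ano1 and carrying the proliferation gene Mki67 (432 nuclei), held 809, 1859 and 48.5. The 488 of Erbb4 and the 809 of Nrg1 lie under the microglial values of these genes. Cajal-Retzius nuclei, the Reln-secreting cells of the cortical surface, split by Trp73: the 136 nuclei with it held 3197 Nrg1 and the 106 without it 1133, a ratio of 2.82 (2.63 to 3.03). The nuclei without Trp73 had Nrg1 near the microglial level. Their Nrg3 was higher, with a ratio of 0.580, and Nrg2 also, at 0.395.

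The other ligands were flatter at E14. Nrg3 stood at 3971 in striatal (3753 to 4199, 36 nuclei) and 3938 in thalamic nuclei (3875 to 4001), which could not be told apart. It was 3685 in Cajal-Retzius and 2944 in forebrain GABAergic nuclei, while cortical (2616) and migrating interneuron nuclei (2529) were at the microglial level. The Cajal-Retzius value joins unlike nuclei. Those with Trp73 held 2719 (2615 to 2827), close to the microglial 2612, and the cluster of 134 nuclei led by Reln and Trp73 held 1744. Cajal-Retzius nuclei with Trp73 therefore cannot be read as clear holders of Nrg3. The progenitors were lowest, with 1245 in intermediate progenitors and 1204 in radial glia. A UMI remained after thinning in 89.6% of thalamic and 86.1% of striatal nuclei, against 42.7% of microglia and 34.9% of radial glia. Nrg2 was between 19.4 CPM in intermediate progenitors and 98.9 in thalamic nuclei (89.2 to 109), and no class had an interval above that of microglia. Thalamic nuclei nonetheless exceeded cortical nuclei 3.05-fold (2.40 to 3.90), and 12.0% of them kept a UMI at 1000 UMIs (21% at 2000).

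**Figure D3:**
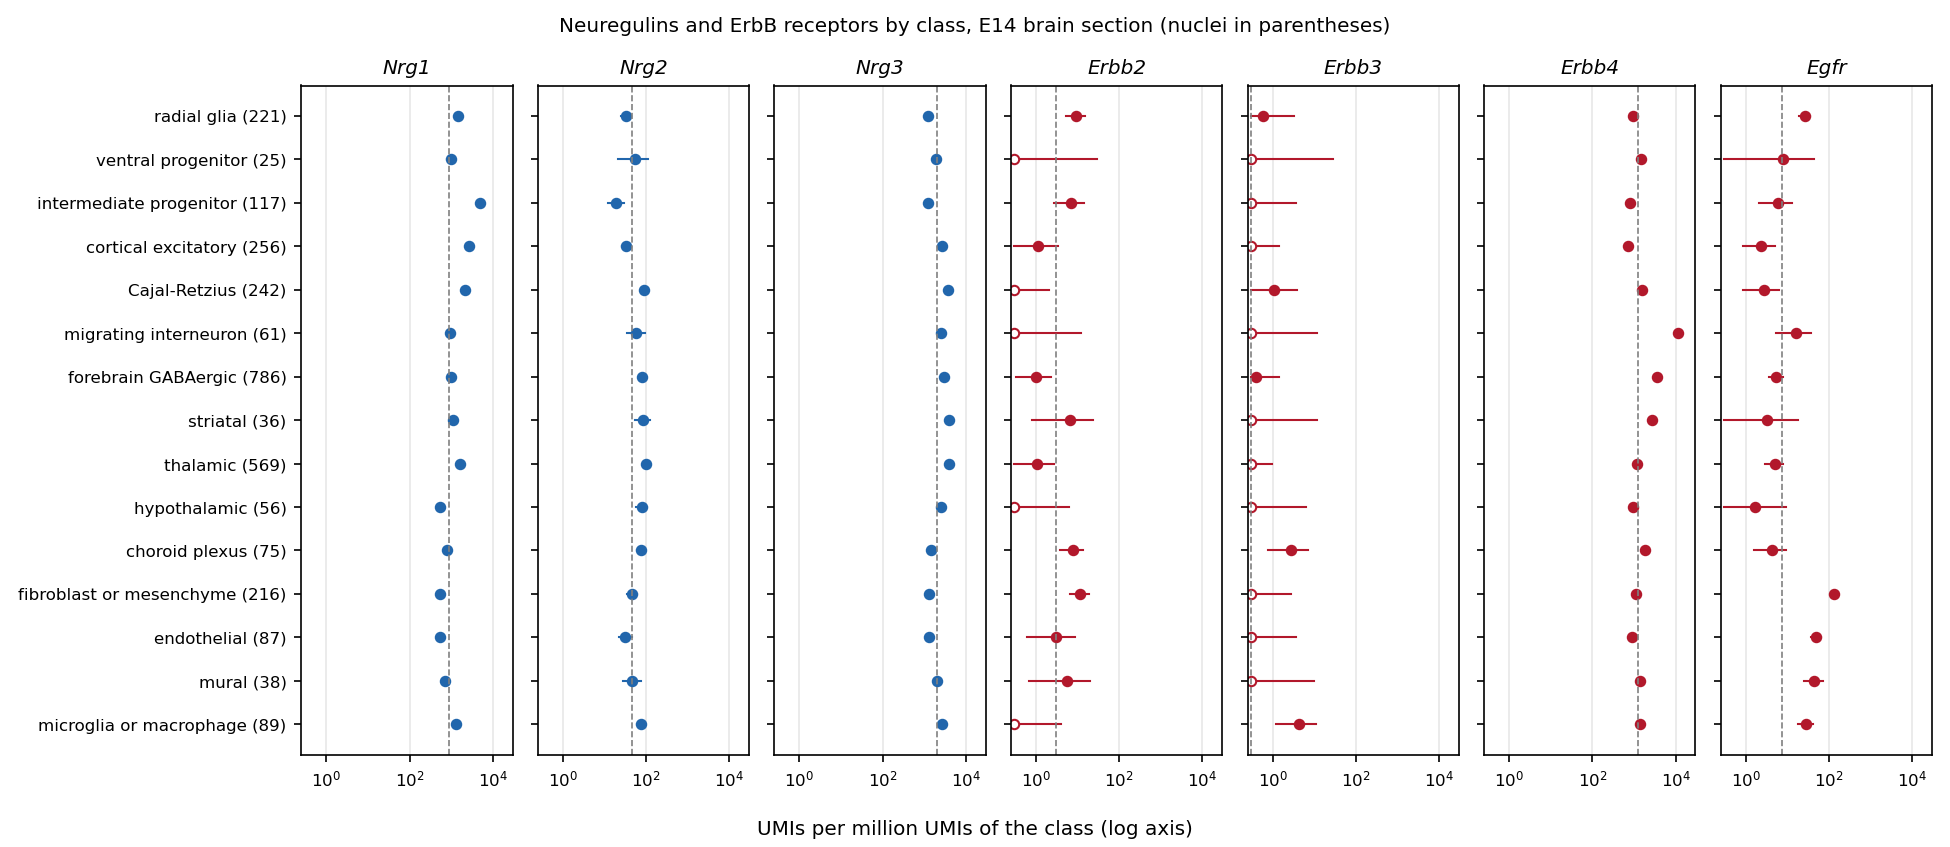
Level of each of the 7 genes in the E14 classes of at least 20 nuclei, in CPM (UMIs per 1000000) on a log axis, with the exact 95% Poisson interval as a line, open markers for classes without a UMI and a dashed line at the level of unclassed nuclei under 1000 UMIs. Nrg1 in intermediate progenitors (4908), Erbb4 in migrating interneurons (11557) and Egfr in fibroblasts (130.4) stand farthest to the right of the dashed line.

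Erbb4 marked the GABAergic lineages of the embryo, the migrating interneurons above all. These 61 nuclei held 11557 CPM (11181 to 11941), the other forebrain GABAergic nuclei 3670.3 (3617 to 3724, 786 nuclei) and striatal nuclei 2730.0 (2549 to 2920.0, 36). Choroid plexus (1794) and Cajal-Retzius nuclei (1591) came next, and the rest ran down to 733 in cortical excitatory nuclei, around the microglial 1399. Migrating interneurons exceeded GABAergic nuclei 3.15-fold (3.04 to 3.26), striatal nuclei 4.23-fold (3.93 to 4.57) and microglia 8.26-fold (7.75 to 8.81). Thinned shares were 90%, 50%, 66.7% and, for microglia, 23.6% (unthinned 91.8%, 63.4%, 75% and 40.4%). Of these, migrating interneurons had the lowest median depth, 3830 UMIs.

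Single nuclei showed that the GABAergic class was uneven. Its median nucleus of at least 2000 UMIs held 556 CPM and its highest 56519, whereas migrating interneurons had a median of 11647 and a highest of 35753. Lhx6, a transcription factor of interneurons from the medial ganglionic eminence, divided it: over GABAergic and migrating nuclei together, the 235 with a UMI of it held 6635 CPM of Erbb4 and the 612 without 2600.0, a ratio of 2.55 (2.48 to 2.62). The medians were 5161 and 4320 UMIs. Nrg1 did not differ beyond counting error, at 1.01 (0.953 to 1.07), while Nrg2 and Nrg3 were lower with Lhx6, at 0.686 and 0.746. Egfr was higher with it, 13.9 against 1.22, but the ratio of 11.4 (4.0 to 44.9) rests on 28 and 4 UMIs. It moved to 3.87 with a lead of 2 times, 6.73 with equal weights, 18.9 without the deepest cluster and 23.1 without likely doublets. By cluster, the highest Erbb4 was in the 462 nuclei led by Dlx6os1, Lhx6, Sox6 and Nxph1 (12103 CPM, 87.0% of nuclei). The 274 nuclei led by Sema3e with the striatal gene Isl1 came second (6845, 93.8%), against a median of 1258 over 23 clusters.

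Egfr at E14 was highest in classes that are not neurons. Fibroblast or mesenchymal nuclei held 130.4 CPM (112 to 151, 216 nuclei), endothelial nuclei 49.8 (37.0 to 65.6) and mural nuclei 44.0 (25.2 to 71.5), and the last 2 could not be separated. Fibroblasts exceeded endothelial nuclei 2.62-fold (1.90 to 3.67) and cortical neurons 57.0-fold (25.6 to 157). Radial glia stood at 26.0, but 55.6% of it came from 1 nucleus, and the proliferating radial glia cluster above (138 Egfr UMIs) carried more than the class. Detection in fibroblasts was 31.5% at a median of 3843 UMIs against 1.95% of cortical nuclei at 7098. After thinning to 1000 UMIs these were 10.3% and 0.391%, and at 2000 UMIs the fibroblast share was 21.1%.

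Erbb2 and Erbb3 were sparse. The 147 Erbb2 UMIs of the embryonic library included 69 in classed nuclei, most of them in fibroblasts (15 UMIs, 11.4 CPM), radial glia (16, 9.25) and choroid plexus (11, 7.72). Radial glia exceeded cortical neurons 8.08-fold (2.31 to 43.3), on 16 and 3 UMIs, and migrating interneurons, Cajal-Retzius and microglial nuclei had none. Of 27 Erbb3 UMIs, microglia and choroid plexus held 4 each, and the Sox10 lineage, in which ErbB3 is known to act, was represented by 1 classed nucleus. The order of the classes for these genes is not readable at this depth.

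Concentrated by the same measure, Egfr (fibroblasts, 13-fold, 10.6 to 16) and Erbb4 (migrating interneurons, 6.64-fold, 6.42 to 6.87) passed 4-fold, and Nrg1 (intermediate progenitors, 3.53, 3.42 to 3.64), Nrg2 (1.64) and Nrg3 (1.52) did not. This was 2 of the 5 members with 100 UMIs in classed nuclei, against 14.7% of 13422 genes and a median gene at 1.99. Nrg1 passed 4-fold as well with a lead of 2 times or without the deepest cluster. The Egfr value was the least settled, at 6.19 by clusters, 19.7 with a lead of 2 times and 23.1 with equal weights.

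At E14 the floor limits what can be read side by side, since microglia held 3995 CPM of ligand and 1431 CPM of receptor. Migrating interneurons held 3512 CPM of ligand and 11573 CPM of receptor, striatal nuclei 5184 and 2739.7, GABAergic nuclei 4006 and 3677, intermediate progenitors 6172 and 795, and cortical nuclei 5338 and 737. The receptor values of intermediate progenitors, cortical nuclei and radial glia (966) lay under the microglial one, as did the ligand value of migrating interneurons. A ligand and a receptor UMI were found in the same thinned nucleus in 66.7% of migrating interneurons, 63.9% of striatal, 56.2% of choroid plexus and 16% of cortical nuclei. The microglial value of 21.3% lay above that of intermediate progenitors (17.2%) and radial glia (17.9%), so shares of that size are not readable as co-expression.

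**Figure D4:**
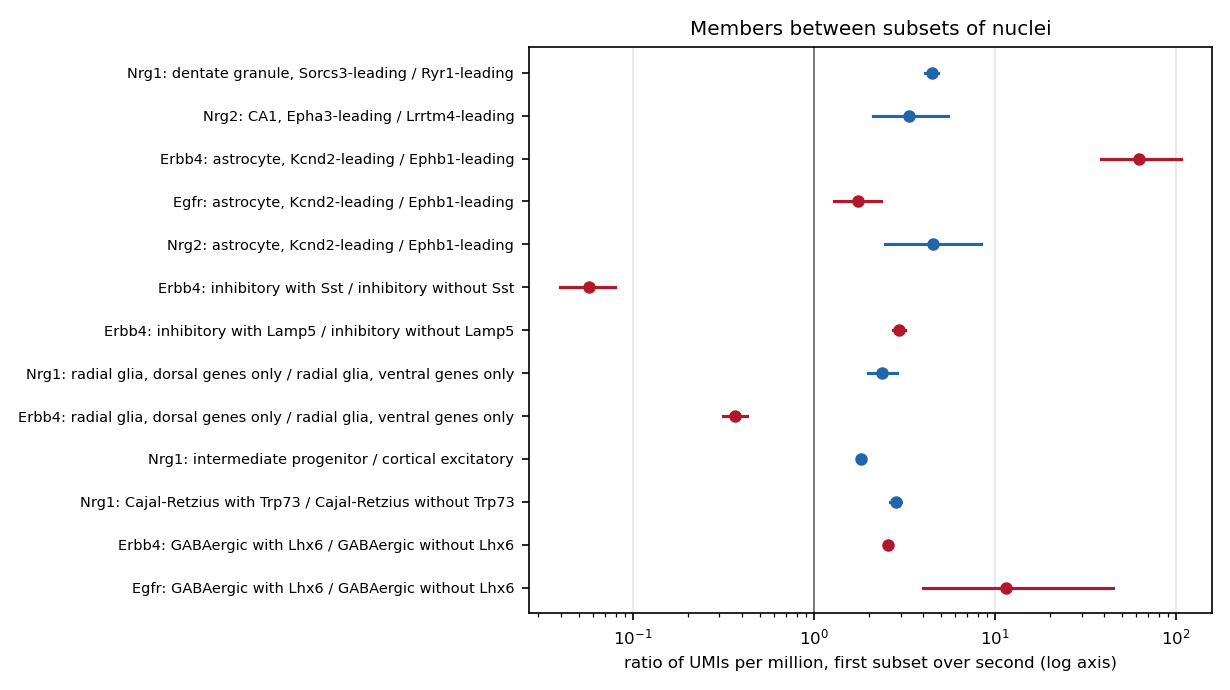
Ratios of CPM between subsets within a class, adult and E14, on a log axis with exact conditional 95% intervals for counting error and a line at 1. Erbb4 in the small astrocyte cluster (62.0) and Nrg1 in the granule cluster led by Sorcs3 (4.46) lie to the right, and Erbb4 in Sst nuclei lies far to the left.

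Between the libraries, age, brain region, Cell Ranger version and library cannot be told apart, so the values are only set side by side. Over all nuclei Nrg1 was 523 CPM in the adult section and 1441 at E14 (2.76-fold, 2.69 to 2.82), Erbb4 420.5 and 1906 (4.53-fold, 4.42 to 4.65) and Erbb2 0.456 and 2.49 (5.47-fold, 2.59 to 13.8). The E14 levels of Nrg1 and Erbb4 include the floor of that library. Its microglia alone held 1308 and 1399 CPM of them, above the adult library levels, so these ratios cannot be read as differences in expression. The adult section had more Erbb3, 6.78 against 0.458 (14.8-fold, 9.61 to 23.5), more Nrg2, 209 against 80.7 (2.59-fold), and more Egfr, 27.7 against 13.1 (2.12-fold, 1.88 to 2.39). Nrg3 was within 2-fold, 3838 and 2972. Of the 7 genes 3 were thus higher and 3 lower at E14 by at least 2-fold, where 21.3% of 16727 genes were higher and 15.5% lower, around a median log2 difference of 0.15. Oligodendrocytes held 86 of the 104 adult Erbb3 UMIs, and their lineage had almost no sign at E14 (Sox10 at 52 UMIs in 40 nuclei). Asked of nuclei under 1% mitochondrial UMIs, 2 genes rather than 3 were lower at E14.

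Within classes, endothelial and microglial nuclei were compared between the sections, and both differed in the genes of the E14 floor. Thalamic nuclei (82 adult, 569 E14) were also classed in both sections, but no such comparison was run for them. Endothelial Nrg1 was 0 in 39 adult nuclei against 539.7 CPM at E14, Nrg3 6.23 against 1301 and Erbb4 6.23 against 900.1. In microglia all 3 were at 0 in the adult and at 1308, 2612 and 1399 at E14. The E14 values lie near those of unclassed nuclei under 1000 UMIs given above. Among all genes, 30.5% of 2955 were higher and 11.6% lower at E14 by 2-fold in endothelial nuclei, and 35.4% and 15.0% of 2378 in microglia.

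Of 25 other genes of the pathway, 16 passed 100 UMIs in adult classed nuclei and 11 of these were concentrated 4-fold in a class, where 26.1% of all genes were. Among 9 further ErbB ligands 2 passed and both led in oligodendrocyte precursors, Tgfa, a ligand of the EGF receptor (124 CPM, 5.46-fold, 3.53 to 8.12), and Cspg5, a neuregulin-like proteoglycan (681, 9.78-fold, 8.15 to 11.7). Egf had 74, Hbegf 71 and Nrg4 90 UMIs in the library and Areg, Ereg, Btc and Epgn 3 or fewer. Of the 4 proteases that release ligands, Adam10 (4.47-fold) and Adam17 (9.21-fold) led in microglia and Adam19 in oligodendrocytes (9.23-fold), while Bace1, which cleaves neuregulin 1, reached 2.57.

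Several downstream genes led in classes that held receptors. Lrig1, a negative regulator of ErbB receptors, led in astrocytes (153, 15.0-fold, 11.3 to 19.8), the class that held Egfr. Erbin, an ErbB2-binding scaffold (1023, 19.4-fold, 17.4 to 21.6), and the adaptor Gab1 (711, 30.1-fold, 26.0 to 35.0) led in oligodendrocytes, the class of Erbb3. Shc3 led in thalamic nuclei (9.66-fold), and Grb2 (5.39) and Pik3r1 (5.75) in microglia. The 5 others that passed, Bace1, Lrig2, Errfi1, Rnf41 and Dlg4, the postsynaptic scaffold that binds ErbB4 (1.43), stayed under 4-fold.

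At E14, 21 of the 25 passed and 5 reached 4-fold, where 14.7% of all genes did. These were Hbegf in endothelial nuclei (36.8 CPM, 7.23-fold, 4.84 to 10.6), Errfi1 (4.57-fold) and Shc1 (5.63-fold) in fibroblasts, Lrig3 in Cajal-Retzius nuclei (4.27-fold) and Shc3 in radial glia (6.55-fold). Errfi1, a feedback inhibitor of the EGF receptor, and Shc1, an adaptor of it, thus led in the class with the most Egfr. None of the 4 proteases reached 4-fold.

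The genes most like each member were sought over the classes of at least 20 nuclei by Pearson's r of log2(CPM + 1), over 10 adult and 15 E14 classes that share library and depth, as a description. In the adult, Nrg3 was followed most closely by Cdr1os (0.99), Slc4a10 (0.98) and Bicdl1 (0.98). Nrg1 went with Rgs17 (0.97), Gm11417 (0.97) and Hdac6 (0.97), and Nrg2 with Cemip (0.95), Gm16267 (0.94) and Pla2g4e (0.93). Among receptors, Erbb4 was nearest to Sox2ot (0.96), Gm38505 (0.93) and Tmem230 (0.90), Erbb3 to Tnfaip6 (0.97), Bcas1os2 (0.96) and Gm10863 (0.96), and Egfr to Hapln1 (0.96), Ostm1 (0.92) and Cxcl14 (0.92).

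No gene was among the 3 nearest in both tissues. At E14 Nrg1 was nearest to Nkain2 (0.88), Draxin (0.86) and Hacd3 (0.85), and Nrg2 to Gm14827 (0.92), Trank1 (0.92) and Gm44129 (0.88). Nrg3 went with the neuronal genes Grin2b (0.97), Rims1 (0.96) and Snhg14 (0.96). Erbb4 was nearest to Cntnap5c (0.92), Nrxn3 (0.91) and Dlgap2 (0.90), and Egfr to the mesenchymal genes Svil (0.92), Lama2 (0.91) and Apod (0.91). Between members, the adult receptors Erbb3 and Erbb4 gave 0.78, and Nrg3 with Erbb4 0.20 in the adult and 0.37 at E14. Erbb2 in both tissues and Erbb3 at E14 had too few UMIs for a reading.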

How the data were processed

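The deposited matrices hold UMI counts per gene and nucleus, and their file headers name Cell Ranger (6.1.2 adult, 7.0.1 E14). Per the study's methods, reads were aligned to mm10 and introns were counted. The study's methods also name CellBender for the embryo, a step the file header does not show. The E14 counts were treated as raw, and whether they were corrected was not tested. Nuclei with at least 500 UMIs and at most 5% mitochondrial UMIs were kept, 1609 of 1661 (adult, 15346746 UMIs) and 9036 of 9037 (E14, 58923882 UMIs). With 1 library per tissue no test was run.

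Each of 15 adult and 18 E14 marker lists was scored per nucleus. Every marker's UMIs per 10000 were capped and scaled by their 99th percentile (floor 2), and their mean was the score. A class needed a score of 0.1, a lead of 1.5 times over the next list and 3 detected markers. Levels are UMIs of a class per 1000000 of its UMIs (CPM), with exact Poisson intervals, shares have exact Clopper-Pearson intervals and ratios exact conditional binomial ones (95%). A count of 0 was given a limit of 3 counts. Clusters came from Seurat 5.3.0 in R 4.3.3 (2000 variable genes without the 7 members, 30 components, resolution 0.8). Doublets were scored with Scrublet in scanpy 1.11.5. Its automatic threshold marked 6 adult and 4 E14 nuclei and so did not work, and the 21 and 653 highest scores (0.8% per 1000 nuclei) were left out only as an alternative. Python 3.11.15 with numpy 2.4.6 and scipy 1.17.1 was used, and the scripts were tested on simulated data. Gene positions are from GENCODE M21.

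Named genes were the members, 25 pathway genes in 4 lists, the genes that divide classes, and the 3 most alike per member among genes of at least 200 UMIs in no marker list. Leading genes of clusters were named besides. Members and lists were chosen with earlier results of these data known, and the class rule, the clusters compared and the divisions of classes after seeing these data.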

Additional observations from a re-analysis of the deposited data

How the results depend on the processing

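No paired analysis was possible because each tissue had 1 library and no result came from a test. The 54 values described were recomputed under other settings, 301 values in all. Direction was checked only for the ratios between subsets and between libraries, and none of these reversed. Of all values, 226 stayed within their counting interval, or within 1.5 times for a count of genes. The leading class was kept from the main setting, so a change of leading class could not show. Of the folds of the leading class, adult Erbb4 moved to 29.7 with clusters in place of marker classes, 22.5 with a lead of 2 times and 10.0 with every nucleus weighing the same, and adult Erbb3 to 45.6 with that weighting. At E14, Erbb4 moved to 7.72 with 4 distinct markers, 7.13 without likely doublets, 7.24 with a lead of 2 times, 7.44 with equal weights and 7.12 without the cluster of the highest median UMI count. Egfr at E14 moved to 6.19, 19.7 and 23.1 by clusters, the lead of 2 times and equal weights. The lead of 2 times, the equal weights and the left-out cluster were added after seeing the data. The cause of these moves was not tested. Clusters gave no migrating interneuron or intermediate progenitor class at E14. Depth sets the limits: shares at 1000 UMIs per nucleus miss most nuclei for genes such as Erbb3 and Egfr, Erbb2 could not be placed, and E14 levels near those of low-count nuclei cannot be read as expression.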
